A study of Mus musculus with 12 samples.

Results

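The SLAM receptors are a family of immunoglobulin-like surface proteins of blood cells, and 9 mouse genes of the family and its signalling were followed here across splenic B cells: the receptors Slamf6, Cd84, Cd48, Slamf1, Ly9, Slamf7 and Cd244, and the adaptors Sh2d1b1 and Sh2d1b2. They were chosen by gene symbol and not by their values, and 9 of 9 symbols were found among 43613 named items, on 11 rows. All 9 reached 1 FPKM (fragments scaled by transcript length and by the library's mapped fragments) in at least 3 of the 12 libraries and were among the 14603 genes tested.

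RNA was sequenced from B cells of 6-month-old female mice, in 4 groups of 3 libraries. B6.Sle1b.IFNaR1-/- mice, called Ifnar1KO, gave GC (germinal centre) and non-GC B cells, and B6.Sle1b mice, called Sle1b, gave the same 2 cell types. GC B cells were sorted as positive for B220, GL7 and CD95, and non-GC B cells as B220-positive cells that lacked both GL7 and CD95. All 12 libraries therefore carry Sle1b, a lupus susceptibility interval, on the C57BL/6J background, and no library without the interval is analysed here. Nothing in the labels ties the libraries of a group to different animals, so p-values measure only the spread among these samples, part or all of which may be technical.

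SLAM receptors sit on T cells, B cells, NK cells and myeloid cells, and most of them bind their own kind on a neighbouring cell. Cd48 differs in being anchored by lipid, with no signalling tail, and is the ligand of Cd244. The tails of the other receptors carry tyrosine motifs that recruit the small adaptors SAP, encoded by Sh2d1a, and its relatives EAT-2 (Sh2d1b1) and, in mice, ERT (Sh2d1b2). Together with SAP in T cells they tune how long T and B cells stay attached in the germinal centre. The Sle1b interval contains the receptor cluster, and strain differences in these genes, Slamf6 above all, have been studied as candidates for its effect on B cell tolerance.

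All 9 genes lie on chromosome 1 of GRCm38. The 7 receptor loci span 394 kb, from chr1:171559193 to chr1:171953170, and the adaptor genes lie together outside that span, Sh2d1b2 at chr1:170232749-170253608 and Sh2d1b1 at chr1:170277320-170286769 in GENCODE M21. The windows of 250 bases before the annotated start are shown for 4 receptors with clear expression in B cells whose levels separated GC from non-GC libraries in batches 1 and 2 in the values given further on (Cd244 also separated there, but at low levels, and its window is not shown): Slamf6 (chr1:171917212-171917461, plus strand), Cd84 (chr1:171839447-171839696, plus strand), Cd48 (chr1:171681742-171681991, plus strand) and Slamf7 (chr1:171649000-171649249, minus strand). Sequences are from RefSeq on GRCm38.p6, each read 5′ to 3′ along its gene, and capitals mark the match described after them. The RefSeq start of Slamf7 lies 4.04 kb inside the GENCODE M21 locus, so its window overlaps that locus.
Slamf6: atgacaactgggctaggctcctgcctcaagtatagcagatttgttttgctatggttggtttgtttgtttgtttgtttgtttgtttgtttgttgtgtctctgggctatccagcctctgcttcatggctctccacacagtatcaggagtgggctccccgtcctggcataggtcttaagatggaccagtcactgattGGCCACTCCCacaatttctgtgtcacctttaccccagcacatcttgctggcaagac
Cd84: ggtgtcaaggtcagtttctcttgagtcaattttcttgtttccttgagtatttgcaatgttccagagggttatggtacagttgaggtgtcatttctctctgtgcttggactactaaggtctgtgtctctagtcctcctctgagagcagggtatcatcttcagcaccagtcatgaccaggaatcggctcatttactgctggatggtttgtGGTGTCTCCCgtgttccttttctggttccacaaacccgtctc
Cd48: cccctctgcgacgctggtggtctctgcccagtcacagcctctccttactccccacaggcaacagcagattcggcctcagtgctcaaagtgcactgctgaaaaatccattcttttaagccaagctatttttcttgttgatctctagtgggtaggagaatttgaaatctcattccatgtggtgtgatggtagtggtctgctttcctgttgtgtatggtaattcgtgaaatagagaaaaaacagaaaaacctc
Slamf7: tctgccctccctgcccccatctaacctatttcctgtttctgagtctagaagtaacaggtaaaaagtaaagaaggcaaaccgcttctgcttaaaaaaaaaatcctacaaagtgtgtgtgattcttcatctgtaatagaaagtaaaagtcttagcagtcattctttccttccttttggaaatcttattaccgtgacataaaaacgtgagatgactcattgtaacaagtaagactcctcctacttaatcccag
Windows were found for 8 of the 9 genes. In all, 5 motifs were searched on both strands of each window. The NF-kB-like letters GGGANNNNCC occurred in 2 of 8 windows, those of Cd84 and Slamf6, in capitals above as the reverse strand reads them. The same letters occurred in 17.6% of 32851 windows of that length over all genes. The interferon-stimulated response element GAAANNGAAA (2.98% of all windows), the gamma-activated site TTCNNNGAA (7.02%), the composite site GGAANNGAAA (2.3%) and the octamer ATTTGCAT (1.6%) occurred in 0 of 8, so these letters are absent from these windows and nothing follows about the factors that bind them.

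Several facts of the libraries bear on every value. Each batch, numbered 1 to 3, held 1 library of each group, and the authors' tables were normalised separately by pair of libraries. Batch 3 stood apart: summed FPKM of 6 B cell markers was 20.1 to 221 in its 4 libraries, against 961 to 2330 in the 8 libraries of batches 1 and 2. In batches 1 and 2 the summed FPKM of 7 GC markers was 268, 736, 394 and 942 in GC libraries, against 64.7, 90.9, 66.8 and 68.8 in non-GC libraries. In batch 3 it was 20.3 and 21.1 in GC libraries, against 20.6 and 17.7 in non-GC libraries, so these markers did not separate the sorted cells there, and the levels of batch 3 are given throughout beside those of batches 1 and 2. The knocked-out gene went against its label in batches 1 and 2, and in batch 3 it was lower in the labelled knockout in both pairs. Ifnar1 stood at 13.2, 15.1 and 0 FPKM in GC libraries labelled Ifnar1KO, against 6.44, 9.86 and 6.89 in Sle1b GC libraries. In non-GC cells it stood at 57.5, 70.0 and 2.57 FPKM in libraries labelled Ifnar1KO, against 18.5, 36.5 and 3.18 in Sle1b libraries. The labels do not say which bases the allele removes, so transcript level does not test the knockout, and genotype is used below as the labels give it.

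Slamf6, also called Ly108, was the leading SLAM transcript of non-GC B cells in batches 1 and 2, and Slamf1 stood above it in those of batch 3. Its level was 43.9, 54.9 and 0.939 FPKM in batches 1, 2 and 3 of Ifnar1KO GC cells, against 125, 164 and 8.58 FPKM in Ifnar1KO non-GC cells. In the Sle1b strain it was 32.2, 86.5 and 4.1 FPKM in GC cells, against 132, 158 and 8.07 FPKM in non-GC cells. Within every batch and genotype the GC library was the lower one, and in batches 1 and 2 the highest GC library lay below the lowest non-GC library. Of all tested genes, 6.77% were lower in GC cells in 6 of 6 pairs, and 12.4% had every GC library of batches 1 and 2 below every non-GC library of those batches. In limma 0.0274% of tested genes were called between GC and non-GC cells with 3 batches and 5.0% with batches 1 and 2. Cd84, a receptor that binds itself and takes part in lasting T and B cell contact, showed the same order. It stood at 25.6, 44.0 and 0 FPKM in Ifnar1KO GC cells, against 58.3, 81.0 and 3.04 FPKM in Ifnar1KO non-GC cells. It stood at 12.9, 44.7 and 0.933 FPKM in Sle1b GC cells, against 56.3, 94.5 and 1.82 FPKM in Sle1b non-GC cells. Cd84 was thus lower in GC cells in 6 of 6 pairs. Its value of 0 was not flagged as a failed estimate in the authors' comparisons, but a listed 0 need not mean that no transcript was present.

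Sums of B cell markers, above all of resting B cell markers, were also lower in the GC libraries. Summed FPKM of the 6 B cell markers was 961, 1720 and 24.7 in Ifnar1KO GC libraries, against 2250, 1860 and 221 in Ifnar1KO non-GC libraries. It was 995, 1650 and 20.1 in Sle1b GC libraries, against 2330, 1990 and 192 in Sle1b non-GC libraries. Single B cell markers differed in direction in batch 2. In Ifnar1KO cells Ms4a1 was at 202 FPKM in GC against 183 in non-GC cells, and Pax5 at 212 against 160. In Sle1b cells Ptprc was at 771 FPKM in GC against 760 in non-GC cells, and Ms4a1 at 201 in both. The other B cell markers were lower in the GC libraries of that batch. The sum of 5 resting B cell markers was 125, 263 and 17.2 FPKM in Ifnar1KO GC libraries, against 945, 1050 and 110 FPKM in Ifnar1KO non-GC libraries. That sum was 141, 211 and 15.7 FPKM in Sle1b GC libraries, against 834, 1070 and 119 FPKM in Sle1b non-GC libraries. Both sums were lower in GC cells in 6 of 6 pairs, as were Slamf6, Cd84 and Cd48, and their part in the levels of those receptors was not tested.

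Cd48 and its receptor Cd244 were on opposite ends of the level scale. Cd48 was at 23.2, 17.7 and 0 FPKM in Ifnar1KO GC cells, against 50.4, 53.6 and 1.82 FPKM in Ifnar1KO non-GC cells. Cd48 was at 6.44, 21.9 and 0 FPKM in Sle1b GC cells, against 52.5, 45.9 and 1.88 FPKM in Sle1b non-GC cells. The GC library was lower in 6 of 6 pairs, and in batches 1 and 2 GC levels lay below non-GC levels, 2 orders that 6.77% and 12.4% of tested genes also showed. Cd244, known best from NK cells, was listed at 0 in all 3 Ifnar1KO GC libraries, against 1.15, 0.825 and 0 FPKM in Ifnar1KO non-GC cells. In the Sle1b strain it was at 0, 0.476 and 0 FPKM in GC cells, against 1.47, 1.72 and 1.08 FPKM in non-GC cells. The highest of these values rests on an estimated 32.9 reads, read from the steps between low FPKM values. Cd244 was lower in GC cells in 5 of 6 pairs and listed at 0 on both sides of the other, where 22.1% of tested genes were lower in at least 5 of 6. It reached 1 FPKM in 4 libraries, all of non-GC cells, so it entered the test through the cell type in which it was higher.

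Summed NK cell markers, like Cd244, were lower in GC cells, and over single libraries the sum and Cd244 went together in part. Sle1b non-GC batch 1 had the highest sum, 28.8 FPKM, with Cd244 at 1.47 FPKM, and Ifnar1KO GC batch 2 had both at 0. In other libraries they differed. Sle1b GC batch 1 had a sum of 12.5 FPKM with Cd244 at 0. Sle1b non-GC batch 2 had a sum of 8.58 FPKM with the highest Cd244 level, 1.72 FPKM. Summed FPKM of 8 NK markers was 0.84, 0 and 1.54 in Ifnar1KO GC libraries, against 15.5, 21.2 and 1.6 in Ifnar1KO non-GC libraries. In Sle1b libraries the sum was 12.5, 0.317 and 0 in GC cells, against 28.8, 8.58 and 1.03 in non-GC cells. Of the 8 markers, 6 were listed at 0 in all 3 Ifnar1KO GC libraries, Ncr1, Klrd1, Nkg7, Gzma, Gzmb and Prf1. In Sle1b GC libraries 3 were so listed. In non-GC cells 2 were so listed in Sle1b libraries, Gzmb and Prf1, and 0 in Ifnar1KO libraries. The part of NK cells in the Cd244 values was not tested. In bulk samples fewer cells of a type and less RNA per cell cannot be told apart, here and below.

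Slamf7, also called CRACC, a receptor of NK cells, plasma cells and activated B cells, went the other way. It was at 31.5, 42.3 and 3.92 FPKM in Ifnar1KO GC cells, against 17.7, 19.6 and 7.31 FPKM in Ifnar1KO non-GC cells. In the Sle1b strain it was at 75.0, 41.7 and 3.21 FPKM in GC cells, against 12.2, 17.3 and 2.11 FPKM in non-GC cells. GC libraries were higher in 5 of 6 pairs, the exception being batch 3 of Ifnar1KO. All 4 GC libraries of batches 1 and 2 exceeded all 4 non-GC libraries of those batches. Of all tested genes, 4.56% were higher in GC cells in at least 5 of 6 pairs, and 3.2% had all GC libraries of batches 1 and 2 above all non-GC libraries. Plasma cell markers did not follow this order as a sum. Summed FPKM of 5 such markers was 29.5, 66.3 and 0.524 in Ifnar1KO GC cells, against 63.8, 80.3 and 6.79 in Ifnar1KO non-GC cells. In Sle1b libraries that sum was 29.9, 54.7 and 7.77 in GC cells, against 61.3, 90.3 and 3.47 in non-GC cells. In each pair of batches 1 and 2 the plasma cell sums and the NK marker sums given with Cd244 were lower in GC libraries. Single plasma cell markers differed in direction. Prdm1 was at 6.96, 2.13 and 0 FPKM in Ifnar1KO GC cells, against 0.546, 0.434 and 0.0559 FPKM in Ifnar1KO non-GC cells. It was at 2.2, 7.4 and 0.302 FPKM in Sle1b GC cells, against 1.73, 0.143 and 0 FPKM in Sle1b non-GC cells. Prdm1 was thus higher in GC cells in 5 of 6 pairs, whereas Irf4 was lower in each pair. The part of plasma cells in the Slamf7 levels was not tested. The Sle1b GC library with 75.0 FPKM of Slamf7 also had the highest sum of 9 myeloid markers, 134 FPKM, against 0.0741 to 55.7 in the other 11 libraries. Most of that sum came from S100a9 (55.5 FPKM), S100a8 (47.8) and Lyz2 (22.5). Cst3, of the same list, was at 0.66 FPKM there, against 27.4 in Sle1b non-GC cells of batch 1. The part of myeloid cells in the Slamf7 level of this library was not tested.

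Slamf1 and Ly9 had no common direction. Slamf1, or SLAM, the family's founding member and a receptor that binds itself, was at 16.4, 108 and 1.22 FPKM in Ifnar1KO GC cells, against 32.1, 40.3 and 13.3 FPKM in Ifnar1KO non-GC cells. It was at 15.3, 80.4 and 8.36 FPKM in Sle1b GC cells, against 35.0, 59.8 and 15.2 FPKM in Sle1b non-GC cells. The GC library was the higher one in both pairs of batch 2 and the lower one in the 4 pairs of batches 1 and 3. Ly9, or CD229, which also binds itself, was at 7.05, 38.6 and 8.8 FPKM in Ifnar1KO GC cells, against 29.2, 22 and 2.02 FPKM in Ifnar1KO non-GC cells. It was at 13.4, 19.3 and 3.42 FPKM in Sle1b GC cells, against 23.7, 22.4 and 4.17 FPKM in Sle1b non-GC cells. GC levels of Ly9 lay on both sides of the non-GC levels. T cells also carry both receptors. In batches 1 and 2 the summed FPKM of 9 T cell markers was 13.1 to 29.5 in GC libraries, against 11.0 to 26.5 in non-GC libraries. In batch 3 that sum was 32.4 in Ifnar1KO GC and 128 in Sle1b GC cells, against 24.1 and 7.83 in the non-GC cells. Ly9 and Cd244 share 1 deposited locus interval on opposite strands. The labels do not state that strand was kept, but their annotated exons overlapped by 0 of 3307 Ly9 bases.

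**Figure D1:**
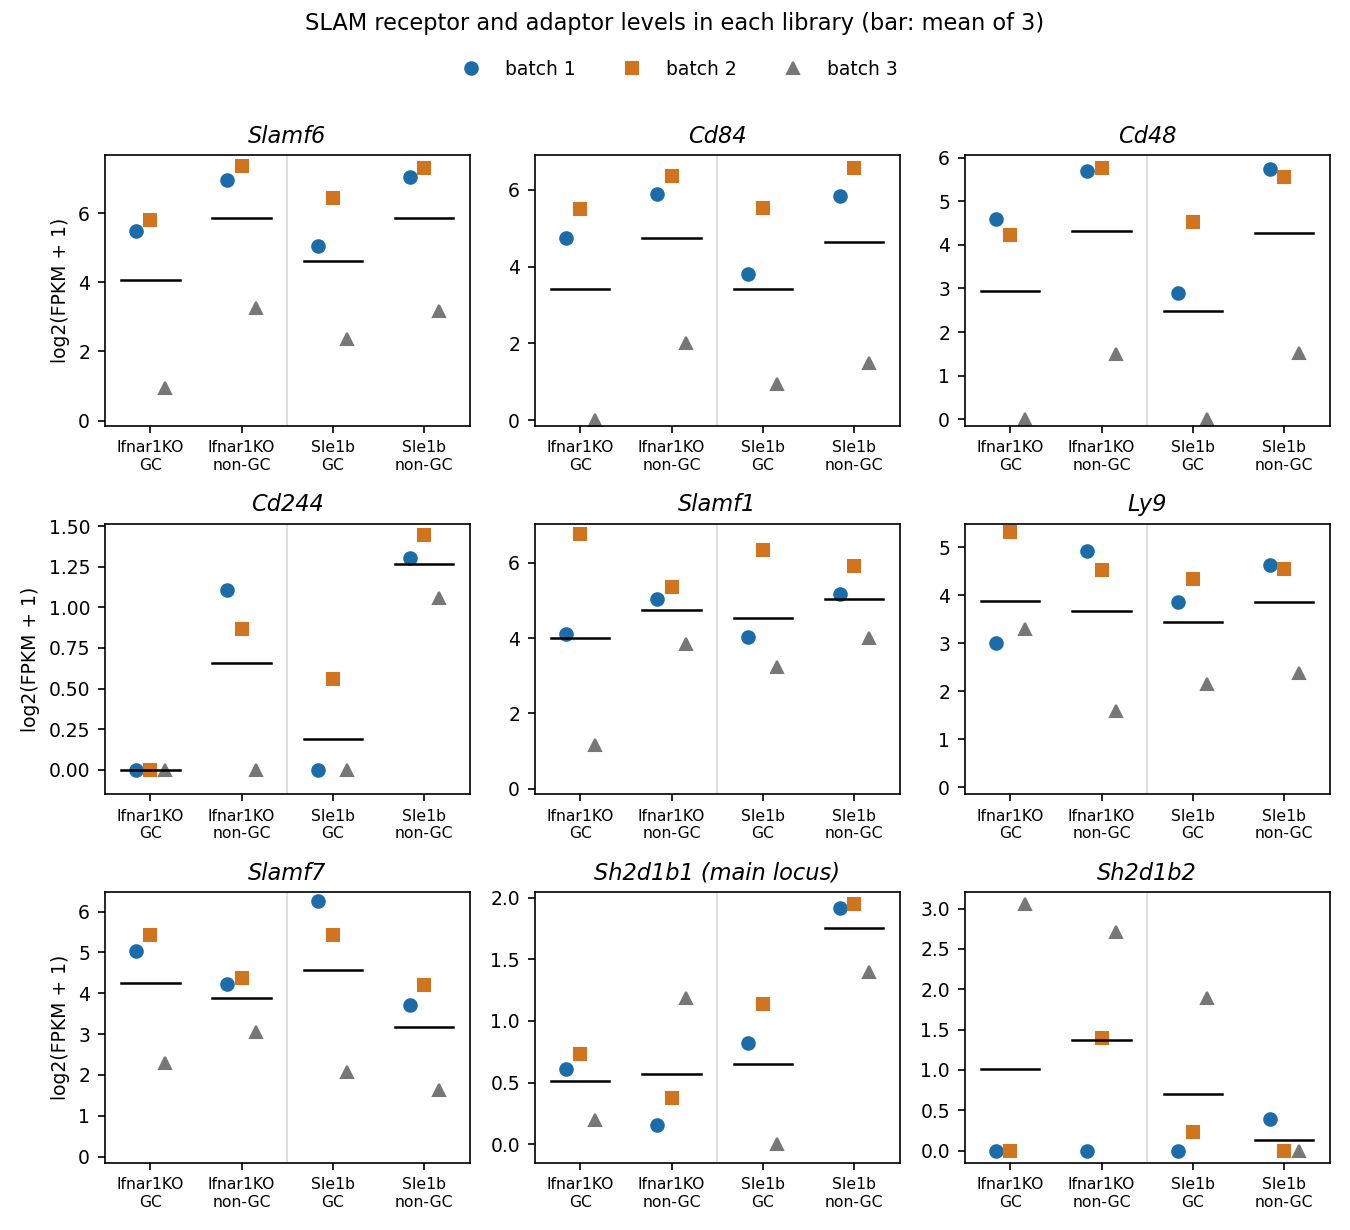
Levels of the 7 receptors and 2 adaptors in each of the 12 libraries, as log2(FPKM + 1) on the y axis, with groups on the x axis, one symbol per batch and a bar for the mean of 3. Slamf6, Cd84 and Cd48 are lower in GC than in non-GC libraries of the same batch and genotype in 6 of 6 pairs, Slamf7 is higher in 5 of 6, and batch 3 lies lowest for most receptors.

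Among the receptors, the order by level changed between the sorted cell types. Slamf6 made up 29.8% and 18.0% of the summed FPKM of the 7 receptors in batches 1 and 2 of Ifnar1KO GC cells, against 39.7% and 43.1% in Ifnar1KO non-GC cells. The Slamf6 share was 20.7% and 29.3% in Sle1b GC cells, against 42.1% and 39.5% in Sle1b non-GC cells. Slamf7 made up 21.3% and 13.9% in Ifnar1KO GC cells, against 5.65% and 5.13% in Ifnar1KO non-GC cells. The Slamf7 share was 48.3% and 14.1% in Sle1b GC cells, against 3.89% and 4.33% in Sle1b non-GC cells. In the 4 non-GC libraries of batches 1 and 2, Slamf6 ranked 1, Cd84 2 and Slamf7 6 of 7, and in the GC libraries of those batches Slamf7 ranked 1, 2 or 4. The ratio of Slamf7 to Slamf6, chosen after the values were seen and so not tested, was 0.717, 0.771 and 4.17 in Ifnar1KO GC cells, against 0.142, 0.119 and 0.852 in Ifnar1KO non-GC cells. That ratio was 2.33, 0.482 and 0.783 in Sle1b GC cells, against 0.0925, 0.11 and 0.261 in Sle1b non-GC cells, higher in the GC library in 6 of 6 pairs, batch 3 included. The summed FPKM of the 7 receptors was 148, 305 and 14.9 in Ifnar1KO GC cells, against 313, 382 and 36.1 in Ifnar1KO non-GC cells, and 155, 295 and 20 in Sle1b GC cells, against 313, 399 and 34.3 in Sle1b non-GC cells. In Ifnar1KO GC batch 3, Ly9 alone held 59.2% of a sum of 14.9 FPKM.

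**Figure D2:**
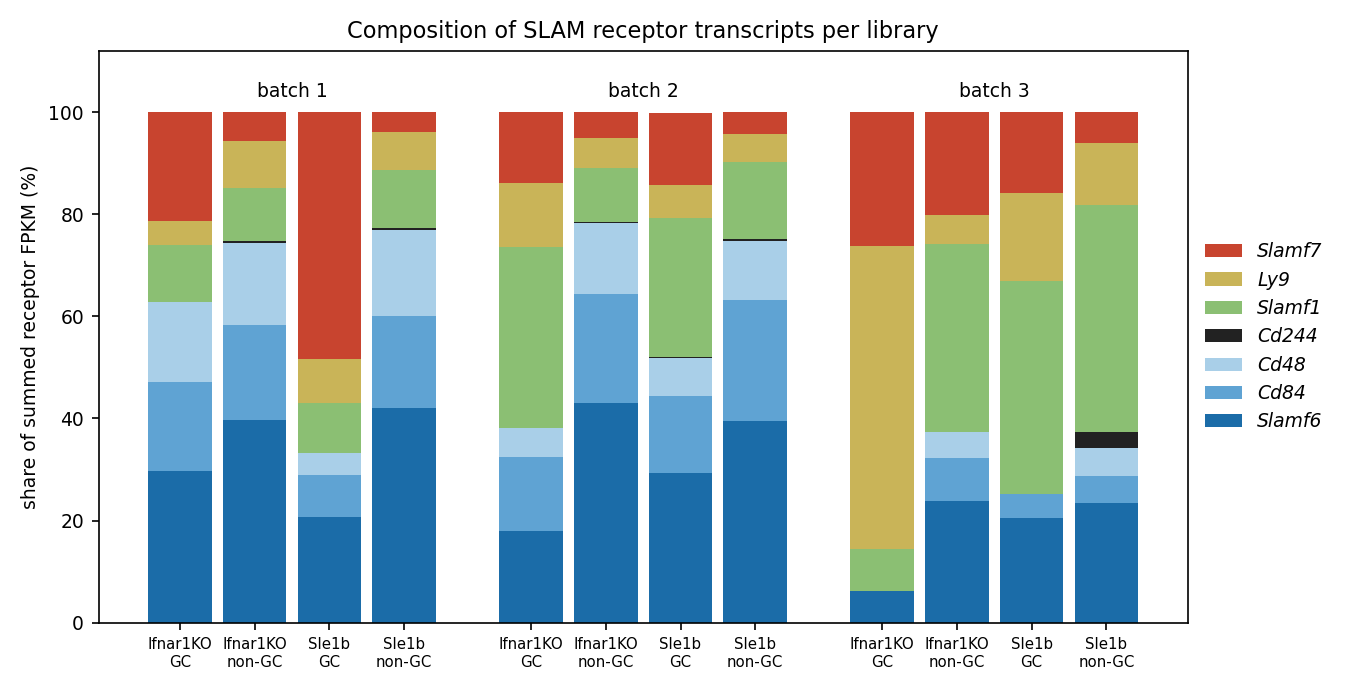
Share of each receptor in the summed FPKM of the 7 receptors, in percent, for the 12 libraries grouped by batch. In batches 1 and 2 the Slamf7 share is 13.9% to 48.3% in GC libraries and 3.89% to 5.65% in non-GC libraries, while Slamf6 holds 39.5% to 43.1% in the non-GC libraries.

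The comparison of GC with non-GC cells, averaged over both genotypes, was tested with limma on log2(FPKM + 1) with batch as a block. With 3 batches, 0 of 9 genes passed an adjusted p of 0.05, where 0.0274% of all tested genes did, and 5 of 9, Cd244 among them, had an unadjusted p under 0.05, against 17.8% of all genes. Over all genes the median difference was -0.26, with 64.7% of genes below 0, so differences are also given with each library centred on its median. Cd48 differed by -1.44 (SE 0.36, adjusted p = 0.109), or -1.12 after centring. Slamf6 differed by -1.37 (SE 0.36, adjusted p = 0.109), or -1.06 after centring. Cd84 differed by -1.14 (SE 0.36, adjusted p = 0.15), or -0.82 after centring. Cd244, which passed the filter through non-GC libraries alone, differed by -0.82 (SE 0.31, adjusted p = 0.206), or -0.5 after centring. Slamf7 differed by 1.01 (SE 0.46, adjusted p = 0.277), or 1.32 after centring. The estimates were -0.5 for Slamf1 (SE 0.51), 0.02 for Ly9 (SE 0.44) and 0.09 for Sh2d1b2 (SE 0.46), each with an adjusted p of 0.637 or higher.

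Batches 1 and 2 alone, with the filter on low values redone on their 8 libraries, gave calls for 2 receptors. Slamf6 fell by 1.23 in GC cells (SE 0.27, adjusted p = 0.0412), a level 0.426 times that of non-GC cells on this scale. Slamf7 rose by 1.65 (SE 0.38, adjusted p = 0.0458), or 3.14-fold. In that fit 2 of 8 tested members were called, against 5.0% of 12310 genes, and the median over all genes was -0.34. Cd48 at -1.38 (SE 0.35, adjusted p = 0.0592) and Cd84 at -1.04 (SE 0.29, adjusted p = 0.0711) missed the threshold, and Slamf1 at 0.18 and Ly9 at -0.29 had adjusted p of 0.809 and 0.721. These calls depend on the filter: with the 14603 genes of the 3-batch filter kept, the same 8 libraries gave adjusted p of 0.0794 for Slamf6 and 0.115 for Slamf7, and 1 gene called in all, against 616 with the filter redone. Without each of the 8 libraries in turn, Slamf6 passed in 1 of 8 fits (-1.38 to -1.07, adjusted p 0.047 to 0.176), the pass being without Ifnar1KO GC replicate 1. Slamf7 passed in 0 of 8 (1.24 to 2.05, adjusted p 0.0555 to 0.172). Centring each library in these batches gave -0.97 for Slamf6 (adjusted p = 0.0738) and 1.9 for Slamf7 (adjusted p = 0.0395).

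**Figure D3:**
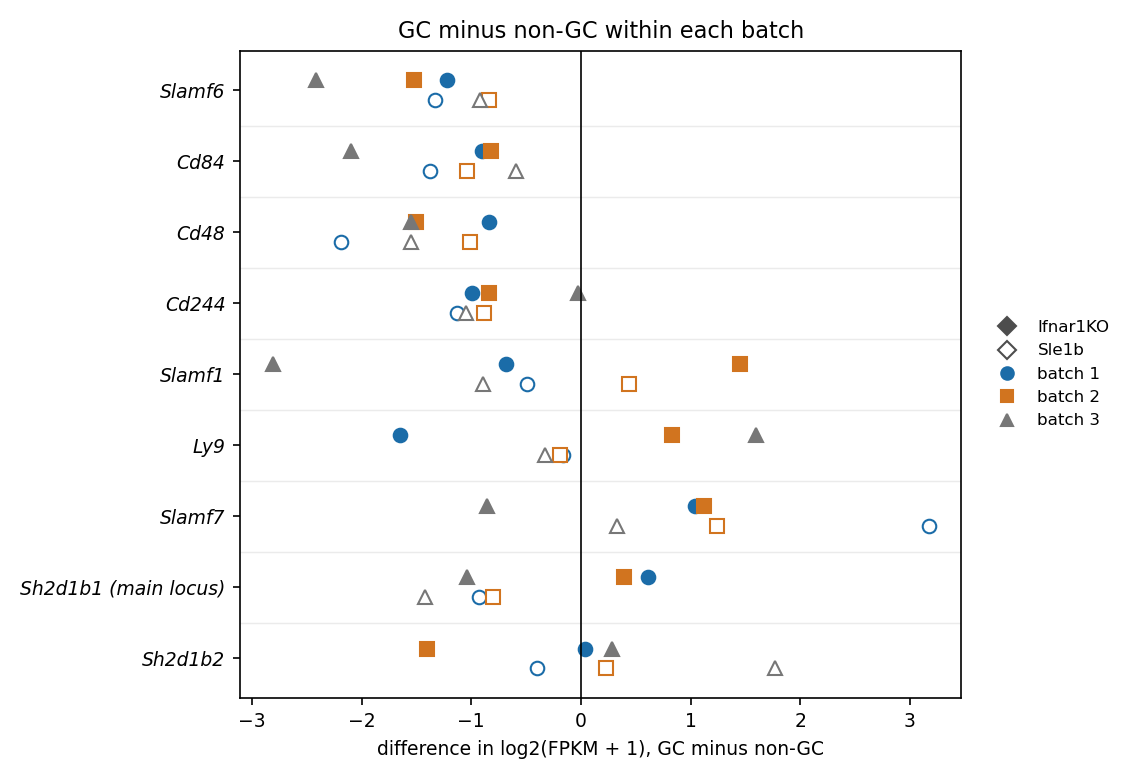
Difference in log2(FPKM + 1), GC minus non-GC, for each gene (rows), batch (symbols) and genotype (filled for Ifnar1KO, open for Sle1b). Slamf6, Cd84 and Cd48 lie left of 0 in all 6 pairs, Slamf7 lies right of 0 in 5 of 6, and Slamf1 and Ly9 lie on both sides. The Cd244 pair listed at 0 in both libraries sits at -0.03, a remainder of joining the tables.

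Within genotypes, Slamf6 and Slamf7 kept the signs given above. With 3 batches Slamf6 differed by -1.72 in Ifnar1KO (SE 0.51, adjusted p = 0.307) and by -1.03 in Sle1b (SE 0.51, adjusted p = 0.558). Slamf7 differed by 0.44 in Ifnar1KO (SE 0.65, adjusted p = 0.79) and by 1.58 in Sle1b (SE 0.65, adjusted p = 0.505). The difference between those differences, tested as an interaction, was -0.69 for Slamf6 (SE 0.72) and -1.15 for Slamf7 (SE 0.92), with adjusted p of 0.996 for both. The interaction passed for 0 of 9 members and 0.0% of all genes, with 0 of 9 at an unadjusted p under 0.05, against 3.64% of all genes. In batches 1 and 2 alone Slamf6 differed by -1.37 in Ifnar1KO (SE 0.38, adjusted p = 0.132) and by -1.08 in Sle1b (SE 0.38, adjusted p = 0.277). There Slamf7 differed by 1.08 in Ifnar1KO (SE 0.53, adjusted p = 0.303) and by 2.21 in Sle1b (SE 0.53, adjusted p = 0.145). The interaction in these batches was -0.29 for Slamf6 (SE 0.54, adjusted p = 0.976) and -1.13 for Slamf7 (SE 0.75, adjusted p = 0.949), and it passed for 0 of 8 members and 0.0% of all genes. Of the GC against non-GC contrasts within a genotype, 0 of 9 members passed in Ifnar1KO, against 0.0205% of genes, and 0 of 9 in Sle1b, against 0.0%. At an unadjusted p under 0.05 there were 3 members in Ifnar1KO, against 12.6% of all genes, and 4 in Sle1b, against 9.34%, one of the 4 being Sh2d1b1 with its rows summed. In batches 1 and 2 alone 0 of 8 members passed in Ifnar1KO, against 0.325% of genes, and 0 of 8 in Sle1b, against 0.0812%, with 2 and 4 at an unadjusted p under 0.05, against 19.3% and 13.8% of genes.

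Along the chromosome, receptors with opposite signs lay side by side. The Slamf7 locus lies 73 to 94.0 kb from the first base of the Cd244 locus and Cd48 starts 122.8 kb from it, with GC minus non-GC differences of 1.01 and -1.44. At the other end of the cluster Cd84, the predicted gene Gm10521 and Slamf6 followed each other at -1.14, -1.54 and -1.37. Gm10521 was at 1.8, 17.4 and 0 FPKM in Ifnar1KO GC cells, against 16, 27.4 and 1.51 FPKM in Ifnar1KO non-GC cells. It was at 1.62, 11.8 and 0 FPKM in Sle1b GC cells, against 15.1, 28.0 and 2.16 FPKM in Sle1b non-GC cells, again lower in GC cells in 6 of 6 pairs, with an adjusted p of 0.101 in limma. With 3 batches 0.0274% of all tested genes passed in limma and 17.8% had an unadjusted p under 0.05. Of 12 named neighbours inside the cluster 5 were tested and 0 passed, with 2 at an unadjusted p under 0.05. Their estimates were below 0 for 4 of 5 with 3 batches (median -0.3) and for 5 of 5 without batch 3 (median -0.98), beside all-gene medians of -0.26 and -0.34. Gm37010 shares the Cd48 interval, Gm37065 that of Slamf6 and Gm37787 that of Slamf7. Annotated exons of Gm37065 overlapped 0 of 10832 exonic bases of Slamf6. For Gm37010 and Gm37787 the overlap was not measured, and without strand reads cannot be told apart where exons overlap. Between 8 and 19 of the 58 loci without a name in the cluster were above 0 in a library.

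**Figure D4:**
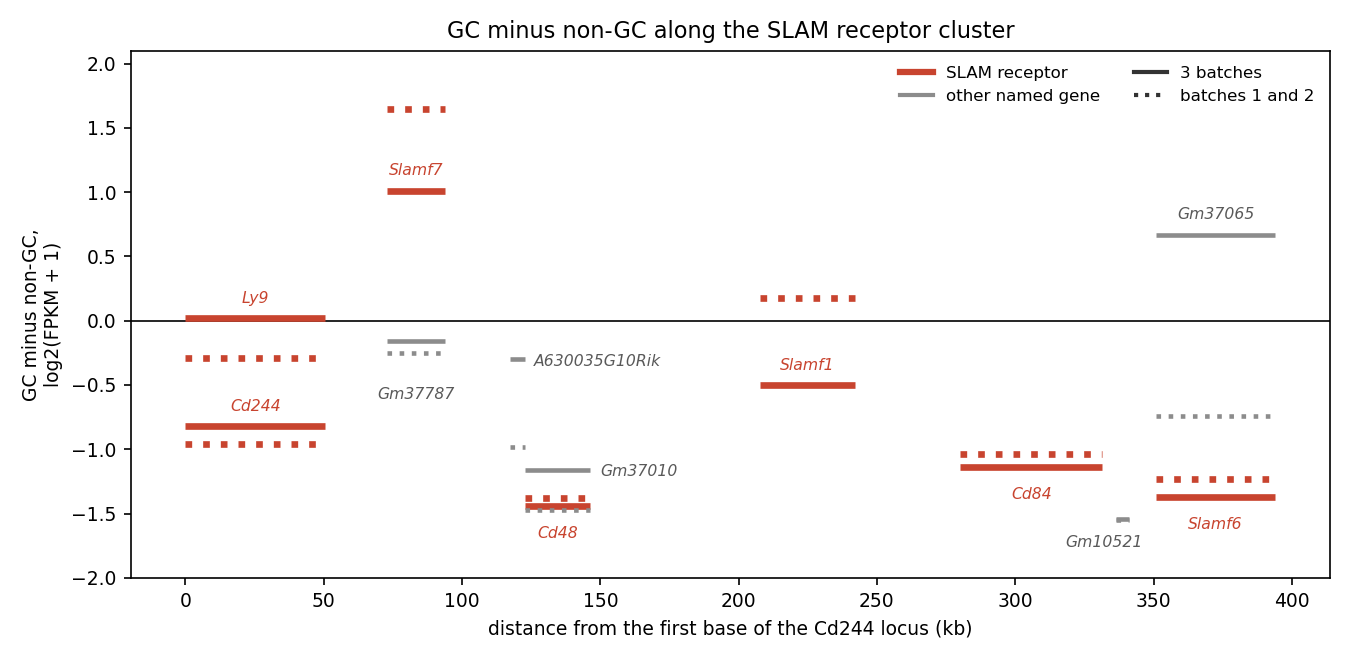
GC minus non-GC difference in log2(FPKM + 1) (y axis) of each tested named gene by its place in the receptor cluster (x axis, kb from the first base of the Cd244 locus), solid with 3 batches and dotted with batches 1 and 2. Slamf7 stands at 1.01 and 1.65 beside Cd48 at -1.44 and -1.38, and Gm37065, inside the Slamf6 interval, changes sign between the fits.

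The adaptors were low. Sh2d1b1 encodes EAT-2, an adaptor known from NK cells and dendritic cells. Its symbol stands on 3 rows with the same coordinates. The main one was at 0.523, 0.658 and 0.143 FPKM in Ifnar1KO GC cells, against 0.113, 0.298 and 1.27 FPKM in Ifnar1KO non-GC cells. It was at 0.772, 1.2 and 0 FPKM in Sle1b GC cells, against 2.78, 2.86 and 1.64 FPKM in Sle1b non-GC cells, the group with the highest levels. On this row GC minus non-GC was -0.53 (SE 0.37, adjusted p = 0.473, limma). A second row was listed at 64.2 and 929 FPKM in Sle1b GC replicates 2 and 3 and at 0 in the other 10 libraries, and the third was at 0 in all 12. With the 3 rows summed, as for every other symbol, the GC minus non-GC estimate became 1.91 (SE 0.97, adjusted p = 0.317), so its sign rests on the second row in those 2 libraries. What the second row measures was not tested, and the annotation lists 1 transcript for the gene.

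Sh2d1b2, which encodes ERT, was at 0, 0 and 7.3 FPKM in Ifnar1KO GC cells, against 0, 1.64 and 5.55 FPKM in Ifnar1KO non-GC cells. It was at 0, 0.172 and 2.7 FPKM in Sle1b GC cells, against 0.318, 0 and 0 FPKM in Sle1b non-GC cells. Levels above 2 FPKM occurred in batch 3 alone, in 3 of its 4 libraries. Of the 2495 windows of 50 bases in the Sh2d1b1 transcript, 334 (13.4%) also occur in that of Sh2d1b2, so reads may be shared between these 2 paralogs and both values are uncertain. In the authors' deposited table, Sh2d1b2 was the single member called significant, in 2 comparisons of batch 3 with Sle1b non-GC cells, where it is listed at 0. Those deposited tables called 14.5% of their named genes tested for Ifnar1KO non-GC cells and 8.06% for Ifnar1KO GC cells. The authors' deposited tables gave it 4.9 FPKM in Ifnar1KO non-GC cells (q-value 0.00676) and 6.64 FPKM in Ifnar1KO GC cells (q-value 0.0288). SAP itself, Sh2d1a, an adaptor of T and NK cells, was at 0 to 1.25 FPKM in GC libraries and 0 to 1.85 FPKM in non-GC libraries. The remaining family receptors Slamf8 and Slamf9 stayed below 3 FPKM, and 0 of these 3 genes entered the test.

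The effect of the labelled Ifnar1 genotype on the family was not detectable at this precision. In limma 0 of 9 members passed for GC cells, for non-GC cells and for both averaged, where 0.0% of all genes passed in each. An unadjusted p under 0.05 was found for 1, 0 and 1 members, in both cases Sh2d1b1 with its rows summed. The shares of all genes with such a p were 6.34%, 1.79% and 3.97%. In batches 1 and 2 alone 0 of 8 passed in GC cells, against 0.00812% of genes, and 0 of 8 in non-GC cells and for both averaged, against 0.0%. Averaged over cell types, the receptor differences, labelled Ifnar1KO minus Sle1b, ranged from -0.44 for Slamf1 (SE 0.51) to 0.24 for Cd48 (SE 0.36), all with adjusted p of 0.991 or higher. In batches 1 and 2 alone they ranged from -0.33 for Cd244 (SE 0.39) to 0.39 for Cd48 (SE 0.35), with adjusted p of 0.999. Slamf6 in non-GC cells differed by 0.09, 0.06 and 0 in batches 1, 2 and 3. In GC cells, however, Slamf6 differed by 0.2, -0.62 and -1.49, and Cd48 by 1.47, -0.26 and -0.05, so batches did not share a sign. Cd244 was lower in the labelled Ifnar1KO library in 4 of 6 pairs and listed at 0 on both sides in 2, with a fitted difference of -0.4 (SE 0.31, adjusted p = 0.991). Of all genes 60.6% had a fitted difference below 0, and the share with that order of pairs was not counted.

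By its main row Sh2d1b1 stood higher in Sle1b non-GC cells than in any other group. This row reached 1 FPKM in all 3 Sle1b non-GC libraries, in Ifnar1KO non-GC batch 3 (1.27) and in Sle1b GC batch 2 (1.2). It thus entered the test through the group in which it was higher. In non-GC cells the main row rested on an estimated 1.98, 2.96 and 13.8 reads in libraries labelled Ifnar1KO, against 34.3, 36.4 and 20.6 reads in Sle1b libraries. The FPKM values of the 2 genotypes did not overlap in non-GC cells, as for 1.0% of all tested genes in that direction, but the limma difference of -1.19 (SE 0.53) had an adjusted p of 1.0 (0.0426 unadjusted), and 0.0% of genes passed in that contrast. Without batch 3 it was -1.67 (SE 0.56, adjusted p = 1.0). NK marker sums in these libraries were 15.5, 21.2 and 1.6 FPKM for labelled Ifnar1KO, against 28.8, 8.58 and 1.03 FPKM for Sle1b, and those of 5 plasmacytoid dendritic cell markers were 15.9, 15.4 and 0.212 FPKM, against 14.2, 14.7 and 11.3 FPKM. In GC cells the main row differed by -0.16 (SE 0.53, adjusted p = 0.967). With the 3 rows summed the GC estimate was -5.09 (SE 1.37, adjusted p = 0.762), which again rests on the second row of Sle1b GC replicates 2 and 3.

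**Figure D5:**
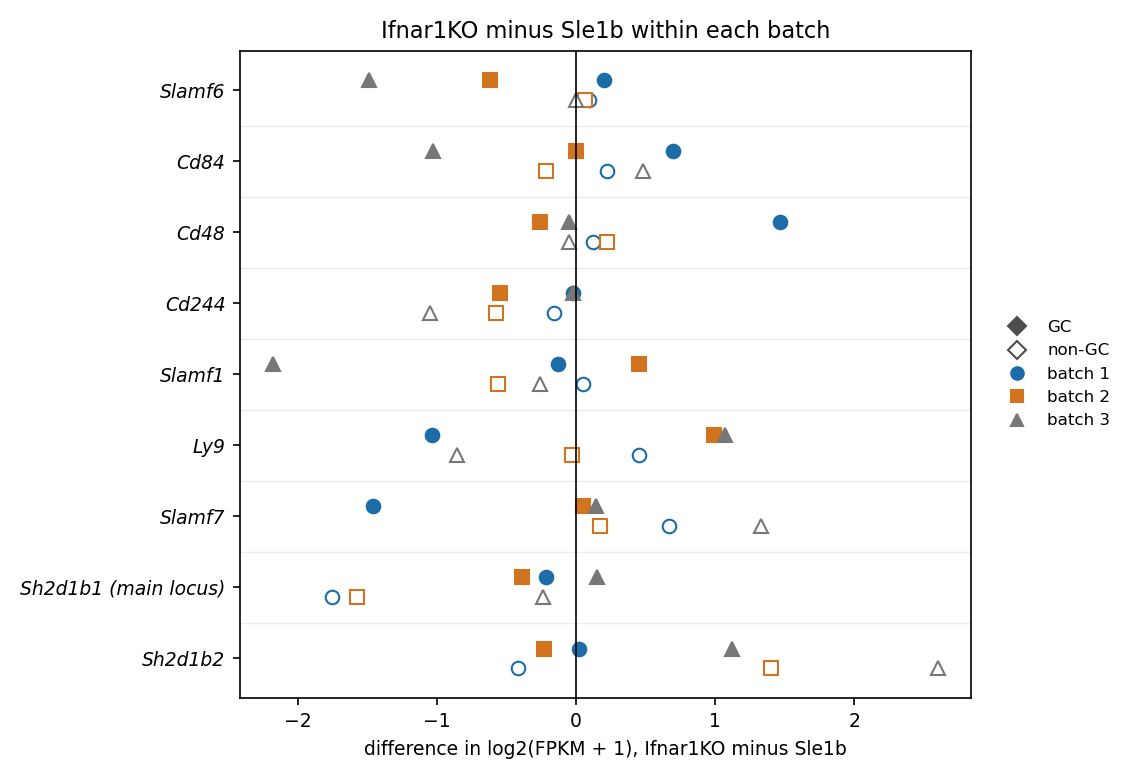
Difference in log2(FPKM + 1), labelled Ifnar1KO minus Sle1b, for each gene (rows), batch (symbols) and cell type (filled for GC, open for non-GC). Receptors lie on both sides of 0 in most rows, and the main Sh2d1b1 row lies at -1.76, -1.58 and -0.24 in non-GC cells.

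Genes that act with the receptors were read from a list of 23 signalling partners, of which 20 were tested. For GC against non-GC cells 0 of 20 passed in limma with 3 batches (0.0274% of all genes passed) and 0 of 20 without batch 3 (5.0%), with 4 and 2 at an unadjusted p under 0.05, against 17.8% and 25.2% of all genes. With 3 batches 15 of 20 were below 0, with a median of -0.49 beside -0.26 over all genes, and without batch 3 the median was -0.3 beside -0.34. The 4 with the largest estimates were Lyn, a Src-family kinase of B cells, at -1.38 (SE 0.41, adjusted p = 0.132), and Ptpn6, the phosphatase SHP-1, at -1.14 (SE 0.51, adjusted p = 0.27). They were followed by Fyn, the kinase that SAP brings to the receptors, at 1.09 (SE 0.59, adjusted p = 0.35), and Bcl10, which links receptors to NF-kB, at -1.04 (SE 0.39, adjusted p = 0.203). Without batch 3 the estimates were -0.94 for Lyn, -0.43 for Ptpn6 (SE 0.31), 1.4 for Fyn and -0.95 for Bcl10. The largest was that of Prkcq, which encodes the kinase PKC-theta, at 1.64 (SE 0.89, adjusted p = 0.288). In batches 1 and 2 Prkcq was at 233 and 9.25 FPKM in Ifnar1KO GC cells, against 0.48 and 2.36 FPKM in Ifnar1KO non-GC cells. It was at 0.109 and 0.913 FPKM in Sle1b GC cells, against 8.48 and 0.833 FPKM in Sle1b non-GC cells. The Prkcq estimate thus rests mainly on 1 library. For labelled Ifnar1KO against Sle1b 0 of 20 passed, also at an unadjusted p under 0.05, against 0.0% and 3.97% of all genes. Of the 20, 3 were above 0 and 17 below, with a median of -0.27 beside -0.12 over all genes. Without batch 3, 11 were above 0 and 9 below, with a median of 0.0 beside -0.04 over all genes. There 0 of 20 passed, against 0.0% of all genes, and 1 of 20 had an unadjusted p under 0.05, against 4.7%. The 4 largest with 3 batches were Ptpn11 at -0.66, Vav1 at -0.65, Plcg1 at -0.61 and Plcg2 at -0.5, each with an adjusted p of 0.991.

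The genes most like each receptor were taken as the 3 with the highest Pearson r of log2(FPKM + 1) over the 12 libraries after the batch mean was removed, as a description over libraries that share batch and cell type. For Slamf6 these were Gimap4 (r = 0.986), Col4a3bp (0.966) and Fcer2a, which encodes CD23 (0.966). For Cd84 they were Gm1972 (0.964), 9930111J21Rik2 (0.957) and Slamf6 itself (0.952). For Cd48 they were Map4k3 (0.959), Fuca1 (0.958) and Lzic (0.958). For Slamf7 they were Troap (0.958), Mbd2 (0.953) and Aire (0.952), for Slamf1 Iqsec1 (0.961), for Ly9 Gnas (0.919) and for Cd244 Gpr183 (0.969). Fcer2a, a receptor of resting follicular B cells, stood at 19.5, 52.9 and 0 FPKM in Ifnar1KO GC cells, against 163, 184 and 17.7 FPKM in Ifnar1KO non-GC cells. It stood at 26.0, 45.3 and 4.08 FPKM in Sle1b GC cells, against 166, 211 and 19.7 FPKM in Sle1b non-GC cells, the same order as Slamf6.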

How the data were processed

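The labels' protocols describe RNA of sorted cells, SMARTer amplification for very low input, and Nextera XT libraries. The submitters' processing notes name TopHat2 2.0.9 with Bowtie2 2.1.0, Cufflinks 2.2.1, CASAVA and Cuffdiff, with build GRCm38. Each of the 17 deposited tables compared 2 libraries of 1 batch and gave the FPKM of both, normalised by the authors for that pair, for 506504 loci. The deposited tables also give a p-value and a q-value from the authors. Rows with the same symbol were summed, which gave 43622 items, of which 9 failed ones were left out. Log2 ratios of FPKM + 1 within a batch were joined by least squares, since tables were normalised separately; FPKM printed per library are means over its tables. A fold change on the log2(FPKM + 1) scale understates the change of low genes.

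Genes with 1 FPKM in 3 libraries were tested with limma 3.58.1 in R 4.3.3 (empirical Bayes with trend, Benjamini-Hochberg adjustment over all 14603 genes, pseudocount 1, batch as a block). The batch in which the authors compared a library equals its replicate number. Deviations of same-batch libraries from their group means correlated at 0.276, 0.397 and 0.524 or more in batches 1, 2 and 3. The highest correlation of their libraries with those of another batch was 0.459, 0.459 and -0.286. By this measure only batch 3 stood apart. The fit was also run on simulated data with independent normal errors and a shift per batch shared by all genes. That setting lacks the low values of batch 3, so it does not show how the fit behaves there. Depth is not given: 1 read on a locus of 1 kb was worth 0.111 to 0.408 FPKM, read from low values that were whole multiples within 0.1 read. Read numbers are estimates for counting error only. Every member was named by rule, together with list members that passed a test or up to 4 with the largest estimates. Members and lists were chosen with earlier results of these data known. Alternatives were other pseudocounts and filters, no block, leaving out libraries and batches, mean FPKM and median centring.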

Additional observations from a re-analysis of the deposited data

How the results depend on the processing

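Among the estimates refitted, Slamf6 and Slamf7 were called when batch 3 was left out and the filter redone. Within those batches Slamf6 passed in 1 of 8 and Slamf7 in 0 of 8 fits without 1 library, and with each library centred Slamf7 passed and Slamf6 (adjusted p = 0.0738) did not. No member was called under the other settings. The Sh2d1b1 row, centred and left-out-library settings within batches 1 and 2 were chosen after the data were seen. Of 526 refits of member estimates, 486 kept direction and side of the threshold, 36 reversed and 4 newly passed.

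The count of genes called between GC and non-GC cells, 4 in limma, became 616 in batches 1 and 2 with the filter redone, 58 with mean FPKM over tables, 28 with a filter of 1 FPKM in 6 libraries, 27 with each library centred and 26 with a pseudocount of 5. It was 1 with a pseudocount of 0.1, without a filter and without batch 3, and 0 without batch 1, without batch 2 and with no replicate block. Leaving out 1 library gave 1 to 13. Within Ifnar1KO the count of 3 became 40 in batches 1 and 2 with the filter redone, 1 with either pseudocount, without a filter or centred, 0 with no replicate block or without any 1 batch, and 0 to 3 without 1 library. Within Sle1b the count of 0 became 2 with the stricter filter, 10 in batches 1 and 2 with the filter redone, and 0 to 1 without 1 library. For Ifnar1KO against Sle1b the count of 0 became 1 in GC cells of batches 1 and 2 with the filter redone. Without 1 library it was 0 to 1 in GC cells, in non-GC cells and for the interaction.

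Reversals concerned small estimates and the Sh2d1b1 rows. For GC against non-GC, Slamf1 became 0.18 without batch 3, whichever filter was used. Ly9 (0.02) became -0.02 with a pseudocount of 5, -0.14 without batch 2, -0.29 without batch 3 with either filter, -0.11 with mean FPKM, and -0.21 to 0.4 without 1 library. Sh2d1b2 (0.09) became -0.38 without batch 3 and -0.3 to 0.4 without 1 library. Sh2d1b1 (1.91 summed) became -0.53 by its main row and -0.18 by that row in batches 1 and 2. For Ifnar1KO against Sle1b, Cd84 (0.03) became -0.35 with a pseudocount of 0.1, -0.19 without batch 1 and -0.11 to 0.21 without 1 library. Cd48 (0.24) became -0.04 without batch 1. Ly9 (0.1) became -0.1 without batch 2 and -0.16 to 0.48 without 1 library. Slamf7 (0.15) became -0.14 without batch 3 with either filter and -0.16 to 0.51 without 1 library, and Slamf1 (-0.44) ranged from -0.86 to 0.05. The causes were not tested. The lowest members, Cd244 and both adaptors, rest on at most 32.9, 36.4 and 101 estimated reads in a library.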
